A study of Mus musculus with 12 samples.

Results

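Selective autophagy was followed through 10 genes, *Sqstm1*, *Nbr1*, *Optn*, *Gabarapl1*, *Map1lc3b*, *Ulk1*, *Wipi1*, *Atg5*, *Becn1* and *Tfeb*, which were taken by symbol from a table of 45777 mouse genes. All 10 were found and all 10 passed the filter on low counts. Livers of 12 mice were sequenced in 4 groups of 3. Vehicle or APAP was injected into WT mice and into mice that carry the *Gna12* KO label. APAP (acetaminophen) injures the liver in overdose, and it was given by i.p. injection at 300 mg/kg to male C57BL/6 mice fasted overnight, and livers were taken 6 h later. The labels give an age of 10 to 12 weeks in every group. *Gna12* encodes the G protein subunit Gα12, the KO is labelled Gα12-/-, and the WT mice were littermates per the study's methods. The vehicle is not specified in the sources used here.

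Whole liver RNA was measured, so that fewer cells of a type and less RNA per cell cannot be told apart in any value below. Total counts ranged from 49737950 to 69566079 per liver. Counts of the targeted gene did not separate the labels: *Gna12* had 2472 to 4003 counts in livers labelled KO and 1193 to 4373 in WT livers. The former are therefore called livers labelled KO throughout. Counts per gene do not show whether the transcript is intact, so they cannot decide the genotype. The study reports PCR of tail DNA, liver qRT-PCR of *Gna12* and Gα12 immunoblots for its WT and KO mice. A pair of livers stood apart from their groups. WT APAP liver 1 held 238212 counts of the hemoglobin gene *Hba-a1*, against 2551 to 7713 in the rest, and WT vehicle liver 2 had the highest summed neutrophil markers of the vehicle livers, at 40.58 TPM. The 10 hepatocyte markers summed to between 74930 and 107600 TPM over the 12 livers, and none of them was at 0 throughout. *Alb* alone had group means of 39500 to 53563 TPM, so the sum says little about the others. Values without 1 or both of these livers are given beside several of the estimates that they move.

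Autophagy encloses cytoplasm in a double membrane and delivers it to the lysosome. In its selective form, receptor proteins bind both a cargo, often tagged with ubiquitin, and an ATG8 protein on the growing membrane, and the receptor is degraded along with the cargo. In hepatocytes the pathway removes damaged mitochondria, protein aggregates and the protein adducts that APAP forms. The receptor p62, encoded by *Sqstm1*, also binds KEAP1, the protein that holds the antioxidant transcription factor NRF2 in check, and *Sqstm1* is itself a known NRF2 target.

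The promoters of the 3 genes that passed the test over all livers follow, because these are the sequences next to the transcripts that changed. Each is the 250 bases before a RefSeq start on GRCm38.p6, read 5′ to 3′ on the gene's strand. Capitals mark the motifs found: the GC box (GGGCGG, or CCGCCC on the other strand) in *Sqstm1*, the CCAAT box (here as ATTGG, on the other strand) in *Nbr1*, and a GC box followed by the E-box core of the lysosomal CLEAR element (CACGTG) in *Atg5*.
Sqstm1, chr11:50210821-50211070, minus strand: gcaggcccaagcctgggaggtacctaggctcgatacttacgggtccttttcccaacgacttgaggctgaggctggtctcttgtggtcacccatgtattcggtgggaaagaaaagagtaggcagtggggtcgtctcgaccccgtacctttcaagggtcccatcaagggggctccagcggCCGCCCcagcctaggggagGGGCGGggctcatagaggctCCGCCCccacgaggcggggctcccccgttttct
Nbr1, chr11:101551857-101552106, plus strand: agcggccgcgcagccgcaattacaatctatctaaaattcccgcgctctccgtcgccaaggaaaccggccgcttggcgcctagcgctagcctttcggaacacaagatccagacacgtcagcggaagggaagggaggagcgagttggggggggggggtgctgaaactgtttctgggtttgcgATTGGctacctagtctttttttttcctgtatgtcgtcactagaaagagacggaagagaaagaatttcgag
Atg5, chr10:44268089-44268338, plus strand: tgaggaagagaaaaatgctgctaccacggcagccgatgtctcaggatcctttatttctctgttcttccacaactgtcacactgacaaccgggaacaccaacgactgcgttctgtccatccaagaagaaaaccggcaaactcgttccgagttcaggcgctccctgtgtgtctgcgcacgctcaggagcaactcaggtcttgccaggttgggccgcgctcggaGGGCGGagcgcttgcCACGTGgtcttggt

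*Sqstm1* held 3 GC boxes, which began 72, 53 and 33 bases before the start. A GC box stood in 8 of the 9 members with a window, *Nbr1* being the exception, and in 32.7% of all 32851 windows of this length. The CCAAT box was found in *Nbr1* alone among the members and in 33.8% of all windows. A second *Nbr1* start has its own window, chr11:101552404-101552653, which is not printed and held 2 CCAAT boxes, 56 and 22 bases before that start. The E-box core, which TFEB and its relatives bind, lay 14 bases before the *Atg5* start and in 6.02% of all windows. No member window held TATAAA (12.4% of all windows), the AP-1 element TGANTCA (6.75%), the antioxidant response element core TGACNNNGC (10.2%), the ATF4 element TGATGNAA (3.45%) or the heat shock pair GGAANNTTC (3.36%). Both strands were searched. A match describes letters and not a bound site, and the absence of a match describes this window only. The last bases of the *Atg5* window lie within the longest span annotated for that gene.

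Of the 10 members, *Sqstm1* was the one that rose after APAP in WT livers, under the KO label and over all livers. *Nbr1* and *Atg5* fell by smaller amounts, past the test only with all 12 livers together. In WT livers 1 of 10 members passed an adjusted p of 0.05 by edgeR's quasi-likelihood test with Benjamini-Hochberg adjustment over all genes, against 2.05% of all genes tested. With the KO label 1 of 10 passed, against 22.6% of all genes. Over all livers, with the label as a term in the fit, 1 member rose and 2 fell, where 25.4% of all genes passed, 14% upward and 11.4% downward. The share of members that passed over all livers was therefore near the background. The median log2 fold change of the 10 members over all livers was -0.23, beside 0.01 for all genes tested.

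**Figure D1:**
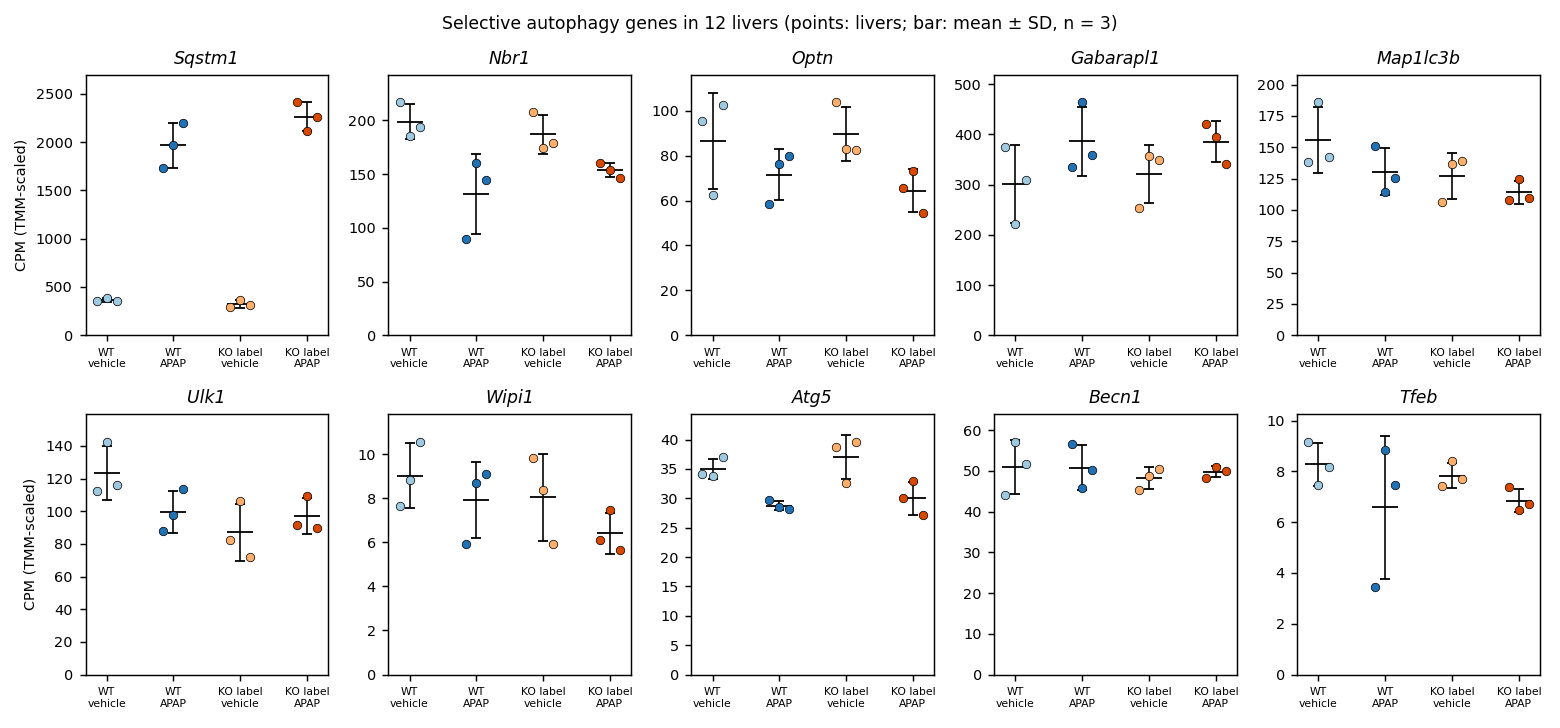
Normalized counts (CPM after TMM scaling, linear axes from 0) of the 10 genes in each liver, by group; points are livers and bars give the mean ± SD (n = 3). *Sqstm1* lies at 1736 CPM or more in every APAP liver and at 389.6 CPM or less in every vehicle liver, while the groups lie closer together for the other 9 genes.

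Among the receptors, *Sqstm1* (gene 18412, GRCm38.p6 chr11:50200152-50210820, minus strand) had 359.7, 389.6 and 354.1 CPM in the WT vehicle livers and 1736, 1967 and 2199 CPM in the WT APAP livers. In livers labelled KO the vehicle group had 289.6, 363.8 and 315.5 CPM and the APAP livers had 2412, 2118 and 2266 CPM. Every APAP liver was above every vehicle liver under both labels, WT APAP liver 1 included. The log2 fold change was 2.43 in WT livers (SE 0.21, 5.38-fold, 95% interval 3.81 to 7.59, adjusted p = 0.00570, edgeR). It was 2.82 under the KO label (SE 0.16, 7.06-fold, interval 5.46 to 9.14, adjusted p = 6.32e-05). Over all livers it was 2.61 (SE 0.13, 6.12-fold, adjusted p = 1.03e-07), the fifth smallest p of 16509 genes. With WT APAP liver 1 and WT vehicle liver 2 left out together, the WT value was 2.55 (adjusted p = 0.00585). On the study's scale, log2(TPM + 1) after quantile normalization with an unmoderated test per gene, the WT log2 fold change was 2.40. The call was lost there at the adjusted threshold used here (adjusted p = 0.104, unmoderated test). The study itself called genes by a fold-change cut and an unadjusted p, so this is not its own call. The 583 bases that *Sqstm1* shares with the overlapping gene *Mrnip* on the other strand, which had 42 to 230 counts per liver, are few beside the 14276 to 159196 counts of *Sqstm1*; the strand setting of the counting is not given in the sources used here.

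*Nbr1* (gene 17966, chr11:101552107-101581951, plus strand), whose product is a receptor of similar domain layout that works beside p62, went the other way. Its level was 216.7, 185.1 and 194.1 CPM in WT vehicle livers and 89.52, 160.5 and 144.7 CPM in the WT APAP livers. In livers labelled KO it was 207.8, 174.4 and 179 CPM with vehicle and 160.2, 153.9 and 146.8 CPM after APAP. No APAP liver reached the lowest vehicle liver. Over all livers *Nbr1* fell by 0.44 on the log2 scale (SE 0.14, adjusted p = 0.0352, edgeR). WT APAP liver 1 was the lowest of the 12, and without it the value was -0.32 (adjusted p = 0.0196). The call was lost when 1 of 6 other livers was left out: WT vehicle 1 (adjusted p = 0.0813), WT vehicle 3 (0.0670), WT APAP 3 (0.0599), KO vehicle 1 (0.0738), KO APAP 2 (0.0526) or KO APAP 3 (0.0667). Within a label it was not past the threshold, with a log2 fold change of -0.59 in WT livers (adjusted p = 0.259, and -0.38 without WT APAP liver 1, adjusted p = 0.259) and -0.27 under the KO label (adjusted p = 0.151).

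*Optn* (gene 71648, chr2:5020521-5064399, minus strand) encodes optineurin, a receptor for ubiquitin-tagged mitochondria and bacteria that the kinase TBK1 activates. It had 95.25, 62.25 and 102.4 CPM in WT vehicle livers and 58.39, 76.45 and 79.86 CPM in the WT APAP livers, so that the groups overlapped through WT vehicle liver 2. Under the KO label the vehicle livers, at 103.7, 82.97 and 82.45 CPM, were all above the APAP livers, at 65.47, 73.27 and 54.24 CPM. The log2 fold change over all livers was -0.38 (SE 0.14) and did not pass by edgeR (adjusted p = 0.0709), while DESeq2's Wald test gave an adjusted p of 0.0480 there and 0.0304 under the KO label. Without WT vehicle liver 2 it was -0.47 (adjusted p = 0.0118, edgeR). In WT livers it was -0.27, and ranged from -0.46 without WT vehicle liver 2 to -0.15 without WT APAP liver 1, with no call.

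The receptors were also set against each other within each liver, a ratio chosen after the values had been seen. By TPM, which is scaled per transcript length, *Sqstm1* made up 68.54, 75.42 and 68.89% of the summed *Sqstm1*, *Nbr1* and *Optn* transcripts in WT vehicle livers and 63.41, 72.63 and 69.31% in vehicle livers labelled KO. After APAP the share was 95.45, 93.94 and 94.76% in WT livers and 95.32, 94.60 and 95.60% under the KO label. The lowest APAP liver lay above the highest vehicle liver. The means were 69.7% ± 4.08 with vehicle and 94.95% ± 0.631 after APAP (SD, n = 6 each). Since the share was built from genes already seen to move, it restates their values on a common scale and is given with no test.

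**Figure D2:**
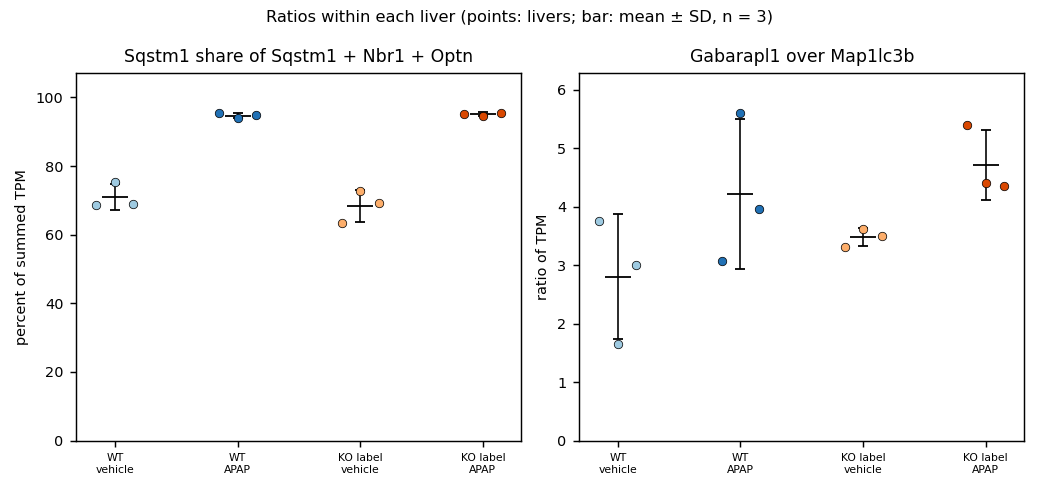
Left, *Sqstm1* as a percent of the summed TPM of *Sqstm1*, *Nbr1* and *Optn*; right, the ratio of *Gabarapl1* to *Map1lc3b* TPM; points are livers, bars the mean ± SD (n = 3), and both axes start at 0. The share lies at 93.94% or more in all APAP livers and at 75.42% or less in all vehicle livers, while the ratio overlaps between WT vehicle and WT APAP livers.

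The ATG8 proteins are small ubiquitin-like proteins that are joined to lipid on the growing membrane, where receptors dock. *Gabarapl1* (gene 57436, chr6:129533192-129542331, plus strand) had 374.2, 221 and 308.1 CPM in WT vehicle livers and 335.2, 463.4 and 358.5 CPM in the WT APAP livers. It had 254.1, 357.2 and 349.6 CPM in vehicle livers labelled KO and 421.1, 394.8 and 340.2 CPM after APAP. The groups overlapped under both labels, and the log2 fold change over all livers of 0.31 (SE 0.15, 95% interval -0.01 to 0.64) did not pass (adjusted p = 0.149, edgeR). In WT livers it was 0.37, and 0.18 without WT vehicle liver 2. *Map1lc3b* (gene 67443, chr8:121590438-121598760, plus strand), which encodes LC3B, the usual marker protein of autophagosomes, had 138.1, 185.7 and 142.6 CPM in WT vehicle livers and 151.4, 114.6 and 125.6 CPM in the WT APAP livers. The livers labelled KO had 106.2, 136.7 and 138.7 CPM with vehicle and 108.2, 124.6 and 109.1 CPM after APAP. The treated and untreated ranges overlapped, with a log2 fold change over all livers of -0.21 (interval -0.46 to 0.05, adjusted p = 0.227), and -0.14 (adjusted p = 0.403) without WT vehicle liver 2. In WT livers alone it was -0.24, and ranged from -0.10 without that liver to -0.37 without WT APAP liver 1.

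The ratio of *Gabarapl1* to *Map1lc3b* TPM, also chosen after the values had been seen, was 3.14 ± 0.777 with vehicle and 4.46 ± 0.936 after APAP (SD, n = 6 each), and is given with no test for the same reason. The lowest value, 1.65, came from WT vehicle liver 2 and the highest, 5.61, from WT APAP liver 2. The log2 difference of 0.53 became 0.35 without WT vehicle liver 2. Pseudogenes of *Map1lc3b* that are 96.5 to 99.7% identical to it over 360 to 378 bases had at most 207 counts in any liver, against at least 6192 for *Map1lc3b*. The span of *Map1lc3b* also overlaps *Zcchc14* on the other strand, which had 1167 to 2762 counts. No stretch of at least 200 bases was found in the transcripts of both, but reads of these genes cannot be told apart where they overlap, since the strand setting is not known. *Map1lc3b* further overlaps the annotated gene *Gm20388* on the same strand, where a strand setting would not separate the reads. *Gabarapl1* shares 379 bases with *1700101I11Rik*, which had 0 to 24 counts, and overlaps *Gm44243* on the same strand. Counts of *Gm20388* and *Gm44243* are not given here.

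Of the core machinery, *Ulk1* (gene 22241, chr5:110784489-110810120, minus strand) encodes the kinase that starts autophagosome formation. Its level was 112.2, 142.5 and 116.2 CPM in WT vehicle livers and 87.61, 97.44 and 113.3 CPM in the WT APAP livers. It was 82.64, 106.3 and 72.15 CPM in vehicle livers labelled KO and 91.66, 109.4 and 89.75 CPM after APAP. The estimates had opposite signs, -0.30 in WT livers (adjusted p = 0.428) and 0.17 under the KO label (adjusted p = 0.502), and their difference of 0.47 was not past the threshold (SE 0.25, adjusted p = 0.872, edgeR interaction term). Both estimates moved with single livers. The WT value was -0.20 without WT vehicle liver 2 and -0.11 without both livers that stood apart, and the value under the KO label was 0.05 without KO vehicle 3, 0.07 without KO APAP 2 and 0.33 without KO vehicle 2. Over all livers *Ulk1* was at -0.08 (adjusted p = 0.713), and at 0.06 without both livers that stood apart.

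*Becn1* (gene 56208, chr11:101288258-101302286, minus strand), the beclin 1 subunit of the lipid kinase that marks the site of membrane growth, was at 43.97 to 57.16 CPM in all 12 livers. Its log2 fold change over all livers was 0.02, with a 95% interval of -0.17 to 0.22 (adjusted p = 0.886, edgeR), and its sign turned with 1 liver left out. *Becn1* shares 1299 bases with *Cntd1* on the other strand, which had 0 to 13 counts. *Wipi1* (gene 52639, chr11:109573521-109611389, minus strand), which reads that lipid mark, was low, at 7.64, 8.84 and 10.6 CPM in WT vehicle livers and 5.92, 8.70 and 9.08 CPM in the WT APAP livers. In livers labelled KO it was 9.82, 8.35 and 5.92 CPM with vehicle and 6.10, 7.45 and 5.66 CPM after APAP. Its groups overlapped, and its log2 fold change over all livers was -0.26 (interval -0.60 to 0.08, adjusted p = 0.260). In WT livers it was -0.18, and -0.02 without WT APAP liver 1.

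*Atg5* (gene 11793, chr10:44268322-44364299, plus strand), part of the complex that joins ATG8 proteins to lipid, had 34.12, 33.81 and 37.01 CPM in WT vehicle livers and 29.67, 28.51 and 28.10 CPM in the WT APAP livers. It had 38.73, 32.67 and 39.62 CPM in vehicle livers labelled KO and 30.00, 32.87 and 27.23 CPM after APAP. The WT groups were apart, and under the KO label APAP liver 2 lay just above vehicle liver 2. Over all livers *Atg5* fell by 0.29 on the log2 scale (SE 0.08, adjusted p = 0.0214, edgeR). The call was lost without WT vehicle 3 (adjusted p = 0.0564), KO vehicle 1 (0.0522), KO vehicle 3 (0.05003), KO APAP 1 (0.0530) or KO APAP 3 (0.0675), and within each label it was not made (adjusted p = 0.363 in WT livers and 0.149 under the KO label).

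*Tfeb* (gene 21425, chr17:47737037-47792416, plus strand) encodes a transcription factor that switches on lysosomal and autophagy genes when it enters the nucleus. It had 9.16, 7.46 and 8.18 CPM in WT vehicle livers, 3.44, 8.85 and 7.47 CPM in the WT APAP livers, 7.41, 8.39 and 7.71 CPM in vehicle livers labelled KO and 7.38, 6.47 and 6.70 CPM after APAP under that label. WT APAP liver 1 was the lowest of the 12. The log2 fold change over all livers was -0.26 (interval -0.66 to 0.14, adjusted p = 0.337, edgeR), and -0.11 (adjusted p = 0.452) without that liver. In WT livers alone it was -0.32, and -0.02 without it.

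**Figure D3:**
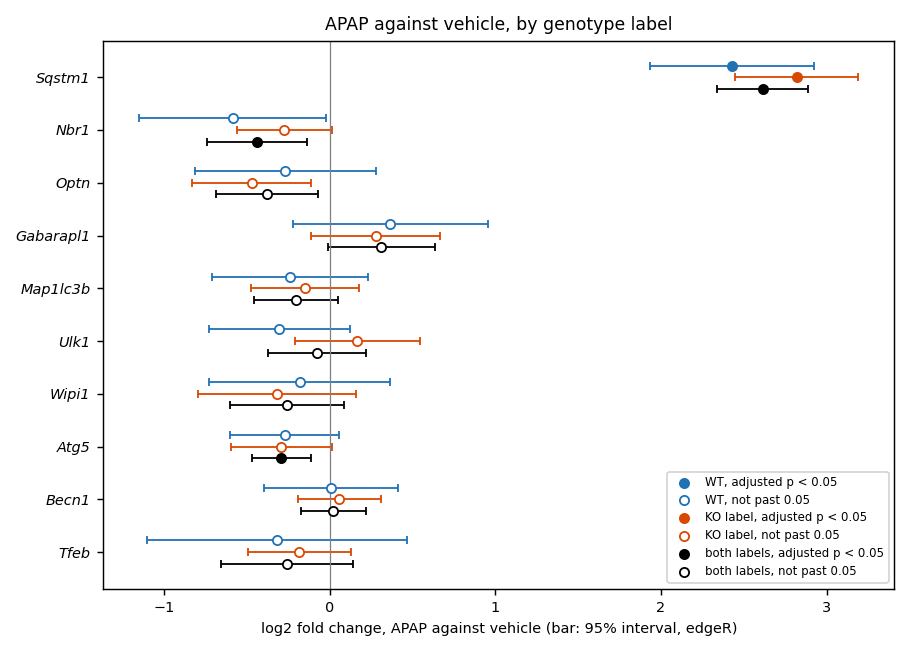
Log2 fold change of APAP against vehicle for each gene in WT livers, in livers labelled KO and over all 12 livers, with 95% intervals from edgeR; filled points have an adjusted p under 0.05. The points of *Sqstm1* lie between 2.43 and 2.82, and those of the other 9 genes between -0.59 and 0.37.

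Levels between the genes were compared by TPM. In vehicle livers *Gabarapl1* (281.9 ± 63.9 TPM, SD, n = 6) and *Sqstm1* (277.4 ± 35.8 TPM) stood highest and did not differ beyond their spread, followed by *Map1lc3b* (91.4 ± 11.8), *Nbr1* (67.6 ± 13.9), *Optn* (54 ± 15), *Becn1* (39.7 ± 3.67), *Ulk1* (32.6 ± 7.51), *Atg5* (24.6 ± 3.92), *Wipi1* (7.63 ± 2.08) and *Tfeb* (5.55 ± 0.923). The ranges of neighbours from *Map1lc3b* down to *Tfeb* overlapped, except those of *Atg5* and *Wipi1*. After APAP *Sqstm1* led alone, at 867.7 to 2381 TPM, above *Gabarapl1* at 188.1 to 488.2 TPM, and the order of the other 8 was kept. Among all genes of a liver, *Sqstm1* ranked from 350 to 465 by TPM with vehicle and from 68 to 121 after APAP.

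No difference between the WT and KO labels passed the test in the 10 genes. With vehicle, 0 of 10 passed (0.0262% of all genes did), and 1, *Ulk1*, had an unadjusted p under 0.05 by edgeR and by DESeq2, which also called none. The log2 difference of *Ulk1*, KO label minus WT, was -0.51 (SE 0.18, 95% interval -0.92 to -0.10, adjusted p = 0.604, edgeR). By p it ranked 554 of 15262 genes. This difference ranged from -0.67 to -0.39 with 1 liver left out, with no call. In *Ulk1* the vehicle livers labelled KO were at 72.15 to 106.3 CPM and the WT vehicle livers at 112.2 to 142.5 CPM. The share of all genes apart in this comparison was not counted, so the gap is not read as a result about *Ulk1*. After APAP 0 of 10 passed by either tool (0.0309% of all genes by edgeR), with 0 at an unadjusted p under 0.05 and groups that overlapped for every member. *Sqstm1* after APAP differed by 0.19 between the labels (interval -0.26 to 0.64). The interaction of label and treatment was past the threshold for 0 of 10 members by both tools and for 0% of all 16509 genes by edgeR, with 0 members at an unadjusted p under 0.05 by edgeR and 1 by DESeq2. For *Sqstm1* the interaction was 0.39 (interval -0.09 to 0.87, adjusted p = 0.872).

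Counting members whose treated and untreated livers did not overlap gave 3 of 10 in WT livers (24.9% of all genes), 3 of 10 under the KO label (42.9%) and, with 6 livers an arm, 2 of 10 over all livers (12.5%). They were *Sqstm1*, *Nbr1* and *Atg5* in WT livers and *Sqstm1*, *Nbr1* and *Optn* under the KO label. *Sqstm1* and *Nbr1* were the 2 over all livers.

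The pathway around the members was read from 63 further autophagy genes in 9 lists. In WT livers 0 of 63 passed by edgeR, against 2.05% of all genes, and DESeq2 called 2. An unadjusted p under 0.05 by edgeR was found for 11, and the share of all genes with such a p was not counted. Under the KO label 8 rose and 5 fell (20.6%), and over all livers 10 rose and 8 fell (28.6%), shares near those of all genes. Of the 4 genes listed with *Ulk1* for the initiation complex, its sister kinase gene *Ulk2* fell by 0.72 on the log2 scale (SE 0.15, adjusted p = 0.00415, edgeR). The 3 partner genes did not pass. In the lipid kinase complex of *Becn1*, *Ambra1* rose by 0.46 and *Pik3r4* fell by 0.34, with 5 of 7 not past the threshold. In the list of *Wipi1* relatives and lipid carriers, *Atg2a* rose by 0.56 and *Wipi2* by 0.38, and 4 of 6 did not pass. Of the 9 conjugation genes, *Atg12*, whose product is joined to ATG5, rose by 0.45 and the ATG8 protease gene *Atg4c* fell by 0.72. None of the 3 remaining ATG8 genes passed over all livers by edgeR or DESeq2, with 1 at an unadjusted p under 0.05, while under the KO label edgeR called 0 and DESeq2 called 1.

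Among 15 other receptors 2 rose and 3 fell. The endoplasmic reticulum receptors *Ccpg1* and *Tex264* fell by 0.55 and 0.37, and *Calcoco1* fell by 0.61. The 2 that rose, named here after their values were seen, were *Retreg1*, another endoplasmic reticulum receptor, by 0.79, and the mitochondrial receptor *Bcl2l13*, by 0.27. Of the receptor kinases, *Tbk1*, which activates optineurin, rose by 0.67 (adjusted p = 0.00129, edgeR), while *Pink1*, which marks damaged mitochondria, fell by 0.27 (adjusted p = 0.0428). Of 9 genes of the *Tfeb* family and its control, the *Tfeb* relatives *Tfe3* and *Tfec* rose by 1.04 and 1.16 and *Fnip1* by 0.40. *Tfec* was low, at 47 to 94 counts in vehicle livers, and its rise was 0.77 without both livers that stood apart. The fusion factor *Stx17* fell by 0.56, the single call among 7 fusion genes. Some of these calls rested on few livers: in 13 fits that left livers out, *Ambra1* was called in 5 (highest adjusted p 0.0853, without KO vehicle 2) and *Pik3r4* in 6 (0.0673, without WT vehicle 1). *Pink1* was called in 4 (0.1096, without KO APAP 1), *Fnip1* in 5 (0.0880, without KO APAP 2) and *Bcl2l13* in 6 (0.0852, without WT APAP 3).

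**Figure D4:**
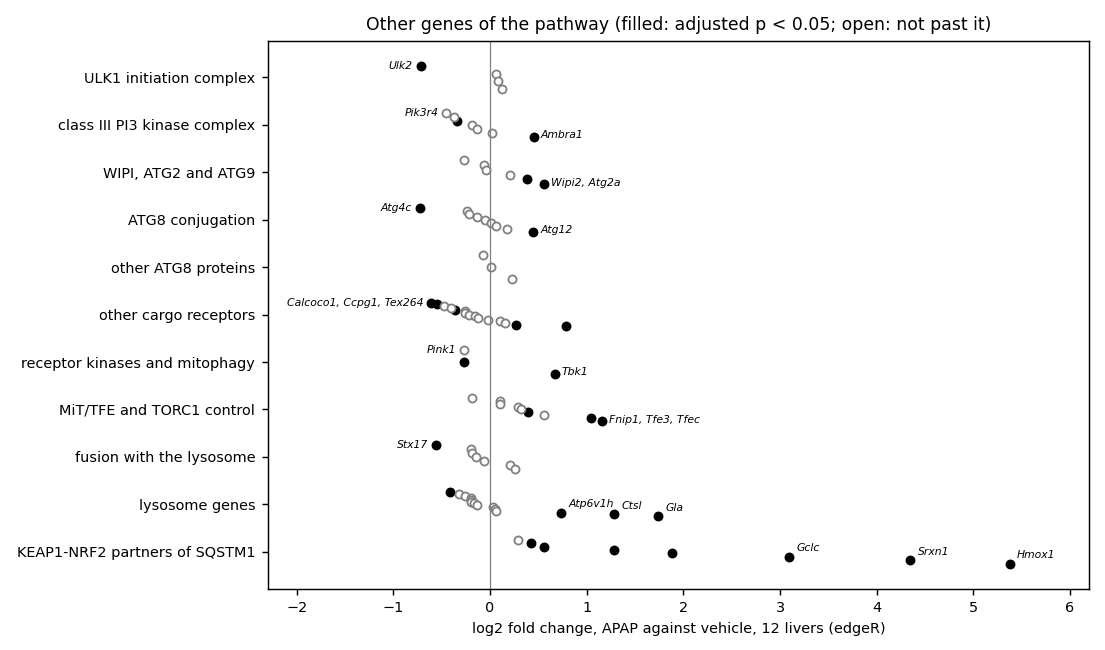
Log2 fold change over all 12 livers for the genes of each list, 1 point a gene; filled points have an adjusted p under 0.05 by edgeR, and names are printed for the genes taken by rule. The autophagy lists hold both rises and falls, from -0.72 to 1.16 among the calls, and 7 of 8 genes in the KEAP1-NRF2 list are filled and to the right of 0.

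Beyond the autophagy genes, 14 lysosome genes gave 3 rises and 1 fall over all livers (28.6%), a share near the 25.4% of all genes. The glycosidase gene *Gla* rose by 1.74, the protease gene *Ctsl* by 1.28 and the proton pump gene *Atp6v1h* by 0.74. The 1 that fell, the calcium channel gene *Mcoln1*, by 0.41, was named after its value was seen. The genes of the KEAP1-NRF2 system that p62 acts on rose too, with 7 of 8 called over all livers (25.4% of all genes), 7 under the KO label (22.6%) and 4 in WT livers (2.05%). *Hmox1*, the heme-degrading enzyme, had a log2 fold change of 5.38, the sulfiredoxin gene *Srxn1* 4.35 and *Gclc*, which makes the first step of glutathione synthesis, 3.09. The others were named after their values were seen: *Txnrd1* rose by 1.89, *Nqo1* by 1.28, *Nfe2l2*, which encodes NRF2, by 0.55, and *Gclm* by 0.43. The *Gclm* call was lost without WT vehicle liver 3 (adjusted p = 0.0509). *Keap1* itself was at 0.29 and did not pass by edgeR (adjusted p = 0.0705), while DESeq2's Wald test called it (adjusted p = 0.0386). By edgeR it passed without WT APAP liver 1 (0.37, adjusted p = 0.00477).

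The genes whose log2 CPM followed *Sqstm1* most closely over the 12 livers were *Ifrd1* (Pearson r 0.994), *Gm34455* (0.990), *Gjd4* (0.989), *Atf3* (0.989) and *Areg* (0.989). These points share a treatment contrast, so the coefficients describe it. *Ifrd1* went from 625 to 889 counts with vehicle to 17414 to 26239 after APAP, and the stress factor gene *Atf3* from 23 to 173 counts to 33792 to 39793. *Gm34455*, *Gjd4* and *Areg* had 0 counts in all 6 vehicle livers and passed the filter through the APAP livers alone, where *Gjd4* had 8 to 17 counts. For *Ulk1* the closest were *Man2c1* (0.867), *Crtc2* (0.858), *Ubxn6* (0.843), *Gm33047* (0.829) and *Fpgs* (0.828). *Ulk1* itself was at -0.08 between the treatments, so its coefficients are not compared with those of *Sqstm1*.

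Markers of other cells moved in part with the treatment. The 8 neutrophil markers summed to 0.853 to 40.58 TPM in WT vehicle livers and 26.64 to 236.3 TPM in WT APAP livers. Under the KO label they summed to 0.972 to 3.39 TPM with vehicle and 1.27 to 19.01 TPM after APAP. In each group 1 or 2 of the 8 were at 0 counts throughout. Of the 6 tested over all livers, 1 was called by edgeR, higher after APAP (16.7%, against 25.4% of all genes), and DESeq2 called 1. All 6 had an unadjusted p under 0.05 by edgeR, with a median log2 fold change of 2.74. The 8 Kupffer cell markers summed to 101.4 to 170.2 and 101 to 232.8 TPM in WT livers, and to 123.3 to 266.8 and 144 to 199.5 TPM under the KO label. Of the Kupffer cell markers 0 of 8 were called over all livers, with 0 at an unadjusted p under 0.05, and DESeq2 called 0. The 7 endothelial markers gave 3 calls over all livers, higher after APAP (42.9%, against 25.4% of all genes), with a median log2 fold change of 0.08. Under the KO label 1 was called higher and 1 lower. They summed to 105.2 to 143.7 and 115.9 to 183.8 TPM in WT livers and to 120.3 to 164.8 and 127.6 to 187.7 TPM under the KO label. The 7 stellate cell markers gave 1 call over all livers, lower after APAP (14.3%). Yet their sums did not overlap in WT livers, at 154.5 to 186.8 TPM with vehicle and 215.3 to 241.5 TPM after APAP. Under the KO label the sums overlapped, at 200.8 to 278.3 and 237.9 to 255.8 TPM. Monocyte, lymphocyte and erythroid markers gave 0 calls over all livers by edgeR and by DESeq2, with 1 of 5, 0 of 8 and 0 of 5 at an unadjusted p under 0.05. The 10 hepatocyte markers gave 1 call over all livers by edgeR (10%, against 25.4% of all genes), lower after APAP, and 0 higher. Their median log2 fold change was 0.04, beside 0.01 for all genes tested. Of them 2 had an unadjusted p under 0.05, and DESeq2 called 1. The hepatocyte marker *Cyp2e1*, named after its values were seen, averaged 8400 CPM in WT vehicle and 3687 CPM in WT APAP livers. Under the KO label its means were 7724 CPM with vehicle and 4050 CPM after APAP. *Cyp2e1* does not stand for the list. The mean of *Alb* went from 52065 to 77025 CPM in WT livers and from 62308 to 58125 CPM under the KO label. The part of any of these cell types in the differences of *Sqstm1*, *Nbr1*, *Optn* and *Atg5* was not tested.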

How the data were processed

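Liver RNA of 12 mice was measured, each library assigned to 1 of 4 groups by its own title, and 0 per-sample columns were left unassigned. Poly-A RNA was converted to libraries with a stranded kit and read as 100-base paired ends. The authors deposited read counts per gene as whole numbers, not normalized. The TPM values deposited by the authors are scaled per transcript length and library. The FPKM values deposited by the authors were not used in any result. The submitters' processing notes list FastQC 0.11.7, Trimmomatic 0.38, HISAT2 2.1.0, Bowtie2 2.3.4.1 and StringTie 2.1.3b, with the build mm10 (GRCm38). Total counts per liver ranged from 49737950 to 69566079.

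After TMM scaling and the filterByExpr filter, edgeR 4.0.16 in R 4.3.3 fitted the counts of the livers compared by its quasi-likelihood method. P-values were adjusted by Benjamini-Hochberg across every gene that passed the filter, and 0.05 was the threshold. APAP was compared with vehicle within each label, over all livers with the label as a term, and the labels were compared within each treatment. A log2 fold change is APAP minus vehicle or KO label minus WT, its SE is the estimate divided by the square root of the F statistic, and CPM is scaled over all 12 livers (16509 genes kept). Alternatives were DESeq2 1.42.0 (size factors, Wald test), no filter, at least 10 counts in every liver, limma 3.58.1 on log2(TPM + 1) or log2(TPM + 0.1) after quantile normalization, the study's unmoderated test on that scale (the added 1 was chosen here), edgeR's newer method, all 12 livers in 1 fit, a replicate block, and livers left out. Scaling by library size alone, leaving out both livers that stood apart, and the within-liver ratios were added after the data were seen. The fits were tested on simulated data.

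The members and lists were chosen with earlier results of these data known. Genes named are all members, *Gna12*, at most 3 genes per list with the smallest p over all livers among those called, and the 5 genes with the highest Pearson r to *Sqstm1* and to *Ulk1*. Coordinates and promoter sequences are from RefSeq, GRCm38.p6, with a window for 9 of 10 members (none for *Becn1*). Transcripts at least 95% identical over at least 200 bases were searched for. The labels give no pairing of livers by replicate number, and 0 of 12 same-number pairs correlated above 0.1 in their deviations from the group means. With 3 livers a group, this cannot exclude that livers of the same number were handled together. No 2 livers of a group agreed within counting noise (chi-square per degree of freedom of at least 87.74). The labels say that the livers are separate samples, but not whether any were handled as a batch.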

Additional observations from a re-analysis of the deposited data

How the results depend on the processing

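The rise of *Sqstm1* kept its direction in every setting and passed in all but 1: on the study's scale with an unmoderated test 0 members passed in WT livers, against 1. Its share of the receptors differed by 0.42 to 0.47 on the log2 scale with livers left out and by 0.73 on the CPM scale. Under the KO label DESeq2's Wald test called 2 members, with *Optn* added. Over all livers the 3 calls became 1 with scaling by library size alone, and ranged from 1 to 4 with livers left out (1 without WT vehicle 3, KO vehicle 1 or KO APAP 3). *Nbr1* passed in 4 of 10 other settings and *Atg5* in 9. Of the 63 other autophagy genes in WT livers, 0 became 2 with DESeq2's Wald test and 6 with all 12 livers in 1 fit, and ranged from 0 to 1 with livers left out. Under the KO label 13 became 5 on the study's scale and ranged from 8 (without KO vehicle 1) to 11 with livers left out. Over all livers 18 became 11 with library size alone and ranged from 13 to 26 with livers left out. The log2 difference of the *Gabarapl1* to *Map1lc3b* ratio ranged from 0.35 to 0.63. The cause of these shifts was not tested. Scaling by library size alone moved the median of all genes under the KO label from -0.02 to 0.10.

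Directions that turned belonged to estimates near 0. In WT livers *Becn1* was at 0.01, and at -0.0089 with DESeq2's size factors, -0.0090 with its Wald test, -0.0046 without a filter, -0.048 on log2(TPM + 1) with limma and on the study's scale, -0.049 on log2(TPM + 0.1), -0.0041 with all 12 livers, -0.040 with library size alone, and -0.095 to 0.0898 with livers left out. Over all livers *Becn1* ranged from -0.0113 to 0.0662 and *Ulk1* from -0.16 to 0.0562 with livers left out, turning to above 0 for *Ulk1* without both livers that stood apart.

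With the replicate number as a block, 2 members passed over all livers (*Sqstm1* and *Atg5*), 1 in WT livers and 1 under the KO label. Since the labels give no pairing by number, a call lost there is not read as a weaker effect. The lowest count of a member in any liver was 173, and how depth bears on the calls was not tested.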
